A study of Homo sapiens with 6 samples.

Results

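The F-box proteins and the cores of the cullin-RING ubiquitin ligases were followed as RNA in U87 cells with and without knockdown of PRMT6, an arginine methyltransferase. The members were chosen by symbol: all genes named FBXL, FBXO or FBXW with a number, except FBXO5, together with cyclin F (CCNF), the cullin scaffolds CUL1, CUL2, CUL3, CUL4A, CUL4B, CUL5, CUL7 and CUL9, the RING subunits RBX1 and RNF7, the adaptors SKP1 and DDB1, the receptor DTL and the exchange factor CAND1. This gave 76 members of the 60612 genes in the table, with 17 FBXL genes, 36 FBXO genes (CCNF counted among them), 9 FBXW genes, 8 cullins and 6 RING, adaptor, receptor or exchange subunits.

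U87 is an established human glioblastoma line, grown here in DMEM with fetal bovine serum. Cells received either a scramble shRNA (NC, 3 libraries) or an shRNA against PRMT6 (shPRMT6, 3 libraries), both carried by lentivirus with polybrene, and the methods describe puromycin selection of stable cells. The labels number the libraries NC-1 to NC-3 and shRNA-1 to shRNA-3, and the supplement lists 3 shRNAs against PRMT6. Neither the labels nor the methods say whether the shRNA numbers name replicates or constructs. The shPRMT6 libraries were taken here as replicates of 1 construct. If they were 3 constructs, construct and replicate could not be told apart. The methods call the replicates independent without saying what separated them. Total RNA was sequenced, and reads were given as counts per gene and as FPKM, fragments scaled to transcript length and library size.

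A cullin-RING ligase attaches ubiquitin to proteins and so marks most of them for the proteasome. The cullin is a scaffold that holds a RING subunit at one end, where the ubiquitin-loaded E2 enzyme docks, and an adaptor with a substrate receptor at the other. On CUL1 the adaptor is SKP1 and the receptors are the F-box proteins, named FBXW for WD40 repeats, FBXL for leucine-rich repeats and FBXO for other domains; CUL4A and CUL4B use DDB1 with receptors such as DTL. These ligases are best known for timing the cell cycle, through the destruction of cyclins, CDK inhibitors and replication factors.

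Library totals ran from 56388161 to 75887696 counts. PRMT6 itself had 9.33, 7.97 and 7.19 CPM (TMM-scaled counts relative to library size) in NC and 3.57, 4.58 and 5.24 CPM in shPRMT6, a log2 fold change of -0.87 (edgeR adjusted p = 0.0225). Leaving out NC replicate 1 (adjusted p = 0.0613), shPRMT6 replicate 1 (0.0588) or shPRMT6 replicate 2 (0.0713) ended that call. Mitochondrial genes held 7.06% to 7.85% of counts in NC and 9.69% to 10.2% in shPRMT6, and the part of this difference in the results on the members was not tested. Of the glial and mesenchymal glioma markers, VIM, CD44 and NES were present, S100B had no counts in any library, and GFAP and SOX2 stayed below 1 CPM in every library. PTPRC (leukocytes), ALB (hepatocytes) and HBB (erythroid cells) were at or near 0, whereas COL1A1, a fibroblast collagen, was abundant at 66.8 FPKM in NC and 70.4 FPKM in shPRMT6. The lists also held OLIG2 among the glial markers, and PECAM1, EPCAM, RBFOX3 and MBP among those of other cells. Of 7 glial and mesenchymal markers 6 were tested, and of 8 markers of other cells 5, and none passed in edgeR. The 8 summed to 61.8 to 70.9 FPKM in NC and 70.6 to 71.7 FPKM in shPRMT6, mostly COL1A1.

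Of the 76 members, 70 had enough counts to be tested across the whole table. By edgeR's quasi-likelihood test, 16 of the 70 passed an adjusted p of 0.05, or 22.9%, beside 18.6% of the 18106 genes tested. The changes were split evenly. In shPRMT6, 8 members were lower (11.4%, beside 9.06% of all genes) and 8 were higher (11.4%, beside 9.51%). With an absolute log2 fold change above 1 added, 3 members were left (4.29%, beside 3.6% of all genes), namely FBXO43, FBXL2 and FBXO24. FBXO24, 1 of the 8 lower members, had no counts in shPRMT6 and entered the test only through the NC libraries. At an unadjusted p under 0.05 there were 26 members (37.1%, beside 32.6%). All 3 libraries of one group lay above all 3 of the other for 34 members (48.6%, beside 40.2% of all genes), with 13 lower in shPRMT6 (18.6%, beside 19.9%) and 21 higher (30.0%, beside 20.3%). The median log2 fold change was 0.03 over the tested members and -0.01 over all genes tested. By these counts and medians the members as a whole lay near the background of the table, and the number called depended on the libraries. Leaving out NC replicate 1 gave 10, NC replicate 3 gave 8, shPRMT6 replicate 1 or shPRMT6 replicate 2 gave 7 each, shPRMT6 replicate 3 gave 9, and NC replicate 2 again gave 16.

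**Figure D1:**
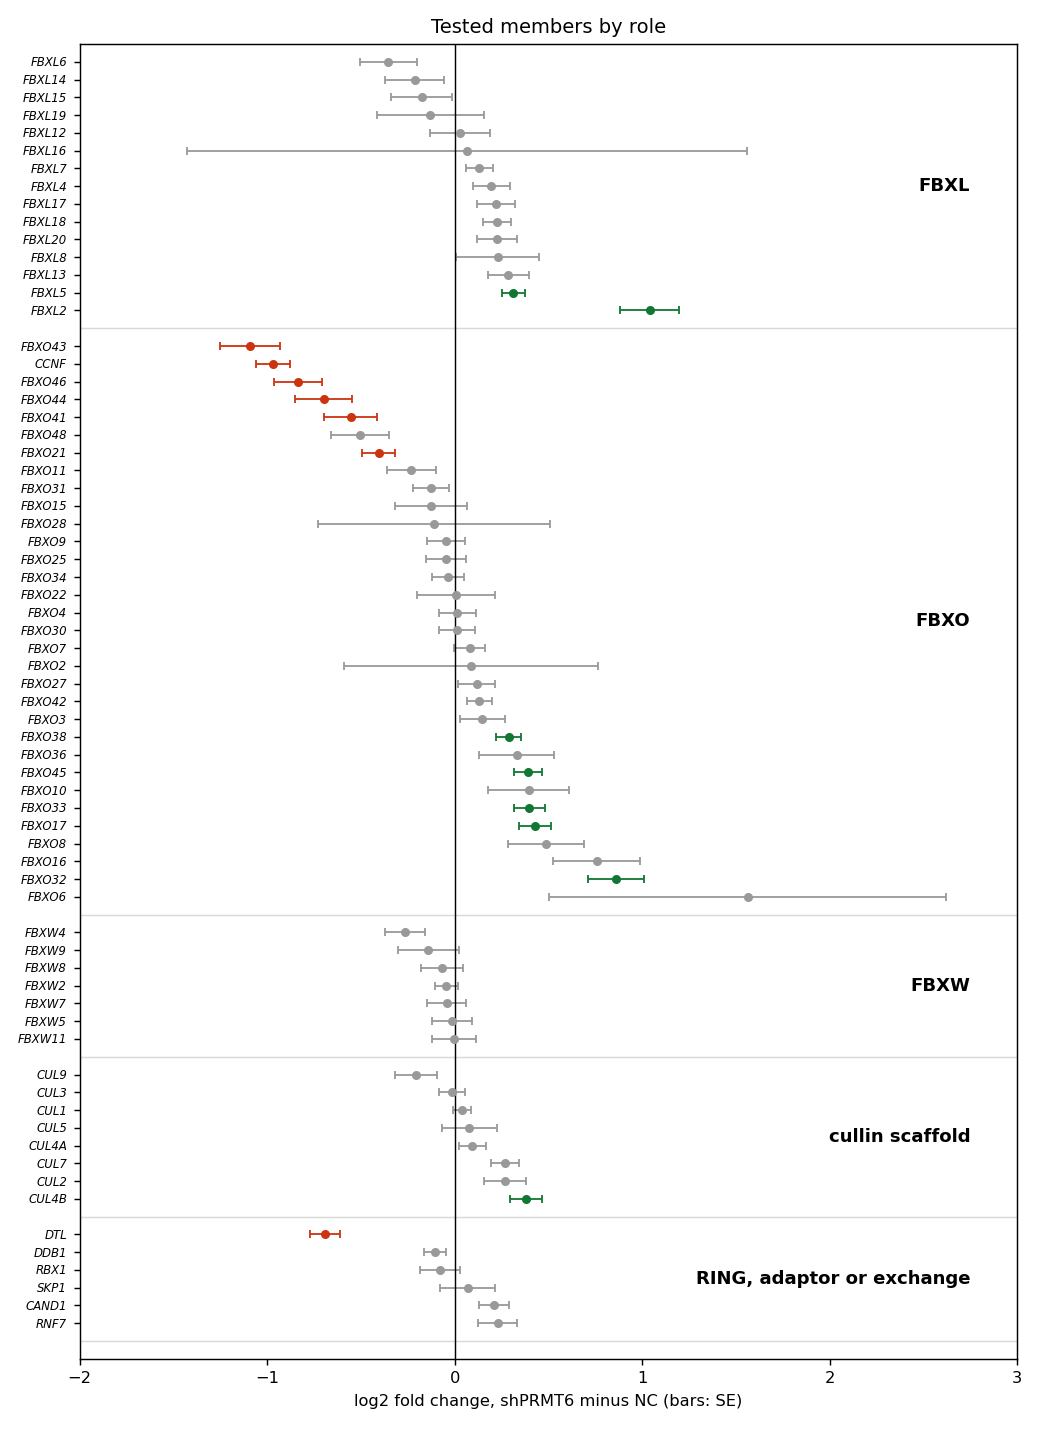
Log2 fold change of tested members, shPRMT6 minus NC (x axis), sorted within its role. Bars are standard errors derived from the edgeR F statistic. Red points were lower and green points higher past an adjusted p of 0.05, and grey points did not pass. The FBXO genes spread to both sides of 0, the 7 FBXW genes all lie below 0 (FBXW5 and FBXW11 lay above 0 in limma with a pseudocount of 0.1), and most FBXL genes lie above it. FBXO24 is left out because it had no counts in shPRMT6.

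By role, the shares can be set beside the 18.6% of all genes that passed (9.06% lower, 9.51% higher), and differences between roles were not tested. Of 33 tested FBXO genes, 12 passed (36.4%), with 7 lower, FBXO24 among them, and 5 higher. Their median log2 fold change was 0.01. The 16 tested FBXL genes had a median of 0.21, with 12 above 0 and FBXL2 and FBXL5 past the threshold (12.5%). None of the 7 tested FBXW genes passed in edgeR, DESeq2 or limma with its FPKM filter, 1 had an unadjusted p under 0.05, and their median was -0.04. The 8 cullins had a median of 0.09 with CUL4B past the threshold (12.5%), and the 6 RING, adaptor, receptor and exchange subunits had a median of 0.00 with DTL past it (16.7%).

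CCNF, cyclin F, is the F-box protein that accumulates in S and G2 phase and targets factors such as the ribonucleotide reductase subunit RRM2 and the replication licensing factor CDC6. It had the smallest p of all members. The gene (ENSG00000162063) spans bases 2429394 to 2458854 of chromosome 16 (GRCh38, plus strand). Its RNA stood at 36.2, 31.7 and 36.5 CPM in the NC libraries and at 18.5, 17.8 and 17.1 CPM in the shPRMT6 libraries. The groups did not overlap, and shPRMT6 held 51.0% of the NC level. The log2 fold change was -0.97 (SE 0.0910, edgeR adjusted p = 0.00156), past the threshold in all 15 alternative fits. Exons of CCNF overlap AC106820.5 and AC106820.6 on the opposite strand over 11.8% of its exon bases, and since the library kit does not mark strand, reads from there could belong to either gene. In bulk RNA of this kind, fewer cells expressing a gene and less of its RNA per cell cannot be told apart.

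DTL, also called CDT2, is the CRL4 receptor that recognises its substrates on PCNA at replicating or damaged DNA, with the licensing factor CDT1 among them. DTL (ENSG00000143476) spans bases 212035553 to 212107400 of chromosome 1 (plus strand). It was at 43.5, 47.2 and 44.6 CPM in NC and at 27.6, 26.5 and 29.7 CPM in shPRMT6. Again every shPRMT6 library lay below every NC library, with 61.9% of the NC level left. DTL fell by 0.69 on the log2 scale (SE 0.0790, edgeR adjusted p = 0.00267) and passed in all 15 alternatives. No exon of another gene in GENCODE 29 overlaps it.

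CCNF and DTL are known periodic genes, and the promoters of both are shown because such genes often carry short motifs bound by cell cycle factors: CCAAT (NF-Y), TTTGAA (the cell cycle homology region, CHR), and the E2F letters TTGGCGC with the variants TTCCCGC, or in their place TTCGCGC, or otherwise TTGCCGC. The sequences are those of RefSeq on GRCh38.p14, 250 bases before to 50 bases after the transcription start, at chr16:2429197-2429496 for CCNF and chr1:212035498-212035797 for DTL, both on the plus strand and written 5′ to 3′, with the letters of a motif in capitals.
CCNF: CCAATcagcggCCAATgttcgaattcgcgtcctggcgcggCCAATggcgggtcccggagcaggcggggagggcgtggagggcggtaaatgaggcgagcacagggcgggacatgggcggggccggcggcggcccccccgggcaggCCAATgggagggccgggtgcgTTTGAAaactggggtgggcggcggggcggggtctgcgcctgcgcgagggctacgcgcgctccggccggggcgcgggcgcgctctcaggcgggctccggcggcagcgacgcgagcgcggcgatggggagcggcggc
DTL: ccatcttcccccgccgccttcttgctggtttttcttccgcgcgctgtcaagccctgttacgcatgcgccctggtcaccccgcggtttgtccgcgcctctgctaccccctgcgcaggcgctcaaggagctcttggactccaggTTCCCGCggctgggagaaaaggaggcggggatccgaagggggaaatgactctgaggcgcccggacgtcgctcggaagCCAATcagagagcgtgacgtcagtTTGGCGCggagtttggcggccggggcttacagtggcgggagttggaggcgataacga
The CCNF window held CCAAT 4 times, with first bases at -250, -239, -210 and -106 from the start, and TTTGAA once at -85, but no E2F variant. The DTL window held TTCCCGC at -108, TTGGCGC at -7 and CCAAT at -31, and no TTTGAA. Neither window had 2 motifs sharing letters.

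Both strands of the 61 members with a promoter in the RefSeq table were searched in the same way. An E2F variant was present in 24.6% of them, beside 13.0% of all 35116 promoters, TTTGAA in 4.92% beside 15.2%, and CCAAT in 29.5% beside 34.6%. Among the members past the threshold, CCAAT was found in 5 of 7 that were lower and in 3 of 6 that were higher. An E2F variant was in 2 of 7 and 2 of 6, and TTTGAA in 1 of 7 and 1 of 6. The 5 lower members with CCAAT include FBXO24, which entered the test only through the NC libraries. Of the 48 members not past the threshold, CCAAT was in 10, an E2F variant in 11 and TTTGAA in 1. Differences between these shares were not tested. Each member was counted with 1 promoter, whereas the 35116 promoters were not limited to 1 per gene or to tested genes. The shares of members and of all promoters thus come from unlike sets. The motifs were chosen with the results known, and a match describes letters, not a bound site.

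FBXO43, or EMI2, inhibits the anaphase-promoting complex and is best known from the arrest of oocytes in meiosis. It was scarce, at 1.26 ± 0.109 FPKM in NC (SD, n = 3). Its CPM was 5.51, 6.01 and 6.41 in NC and 3.03, 3.01 and 2.38 in shPRMT6. The 2 groups stood apart, the highest shPRMT6 library lying well below the lowest NC library. FBXO43 had a log2 fold change of -1.09 (SE 0.160, edgeR adjusted p = 0.00614), and it passed in all 13 alternatives in which it was tested. FBXO5 (EMI1), the mitotic relative that was not counted as a member, had a log2 fold change of -0.43 (SE 0.152). It did not pass in edgeR (adjusted p = 0.104) but did in DESeq2 (0.0164).

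Genes of the cell cycle changed in the same libraries. Of 15 G1/S genes, 12 were lower in shPRMT6 by edgeR (80.0%, beside 9.06% of all genes tested) and none higher. Their median log2 fold change was -0.62. E2F1, the transcription factor of S phase entry, was at -0.62 and MCM7, a subunit of the replicative helicase, at -0.79. Of 12 G2/M genes, 10 were lower (83.3%, beside the same 9.06%) and none higher. Their median was -0.83, and CCNB2, cyclin B2, was at -1.20. The summed level of the G1/S genes was 394 to 411 FPKM in NC and 254 to 273 FPKM in shPRMT6, and that of the G2/M genes was 289 to 320 and 166 to 177 FPKM. The part of this shift in the values of CCNF, DTL and FBXO43 was not tested. Both lists were chosen with earlier results of these data known.

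**Figure D2:**
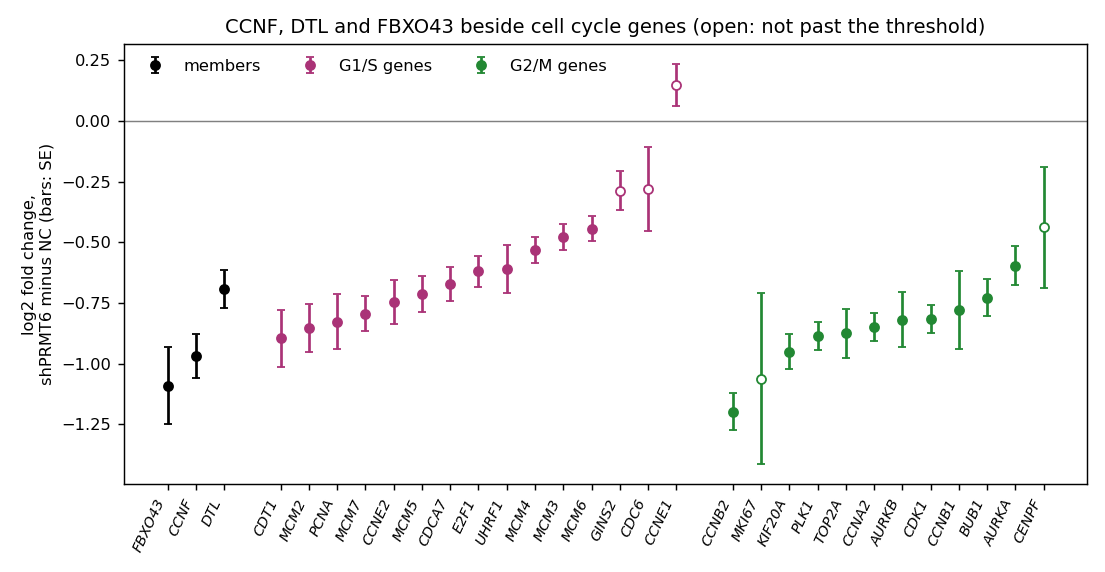
Log2 fold change, shPRMT6 minus NC (y axis; bars are standard errors), of FBXO43, CCNF and DTL beside 15 G1/S and 12 G2/M genes; open points did not pass an adjusted p of 0.05. The 3 members, at -1.09, -0.97 and -0.69, lie within the range of the G2/M genes, whose lowest value is -1.20.

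The other FBXO genes that fell have no settled common function. FBXO46 was at 17.4, 15.4 and 14.4 CPM in NC and at 8.45, 9.86 and 8.09 CPM in shPRMT6. Its groups were clear of each other, and its log2 fold change of -0.84 (SE 0.126, edgeR adjusted p = 0.00676) held whichever library was left out. FBXO46 lost the call in limma without a filter (adjusted p = 0.0623). In GENCODE 29, 12.7% of its 75-base stretches are shared with other genes, so part of its reads could not be assigned to it alone. AC007191.1 overlaps its exons on the same strand. FBXO44 was at 10.7, 8.22 and 9.12 CPM in NC and at 6.0, 6.21 and 5.03 CPM in shPRMT6. Its highest shPRMT6 library stayed under its lowest NC library. The log2 fold change was -0.70 (SE 0.151, edgeR adjusted p = 0.0231), but the call was lost when any library except NC replicate 2 was left out (adjusted p from 0.0567 to 0.0775). Exons of FBXO2 lie opposite 7.57% of the exon bases of FBXO44, and FBXO2 itself had 8 to 23 counts in each library.

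FBXO21 went from 52.9, 47.1 and 50.9 CPM in NC to 34.4, 40.4 and 39.0 CPM in shPRMT6, with no overlap. This was a log2 fold change of -0.41 (SE 0.0899, edgeR adjusted p = 0.0249). FBXO41, known as a neuronal F-box gene, had 9.12, 10.8 and 11.3 CPM in NC and 7.38, 7.67 and 6.20 CPM in shPRMT6, so that the groups were again separate. FBXO41 had a log2 fold change of -0.55 (SE 0.140, edgeR adjusted p = 0.0387). FBXO21 passed only when NC replicate 2 was the library left out (adjusted p from 0.0542 to 0.0806 otherwise), and FBXO41 only when it was NC replicate 1 (0.0786 to 0.118 otherwise).

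FBXO24 was nearly silent, with 12, 33 and 17 counts in NC and 0 counts in each shPRMT6 library. Setting 3 counts as the floor in each library, its level was at least 6.57-fold lower in shPRMT6. The gene entered the test only through the NC libraries, where it is high, so its place among the members past the threshold is given as a description and supports nothing, and leaving out NC replicate 1 (adjusted p = 0.0524), NC replicate 2 (0.0679) or NC replicate 3 (0.0706) ended the call. PCOLCE-AS1, an antisense RNA, lies opposite 26.7% of its exon bases.

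FBXL2, an F-box protein that is anchored to membranes by a lipid tail, rose most among the members past the threshold. It was at 4.90, 4.27 and 3.44 CPM in NC and at 8.61, 8.66 and 8.67 CPM in shPRMT6. The shPRMT6 libraries were almost identical and held 206% of the NC mean, whereas the NC libraries varied more. The log2 fold change was 1.04 (SE 0.157, edgeR adjusted p = 0.00676), and FBXL2 passed in all 13 alternatives in which it was tested. FBXL2 spans bases 33277025 to 33403662 of chromosome 3 (plus strand), with no opposite-strand or same-strand gene over its exons. In FPKM it remained a low gene, at 0.455 ± 0.0771 in NC and 0.951 ± 0.00259 in shPRMT6 (SD, n = 3).

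FBXO32, the atrogin-1 of muscle wasting, was also scarce, at 0.765 ± 0.0915 FPKM in NC (SD, n = 3). Its NC libraries were at 7.08, 5.87 and 7.32 CPM and its shPRMT6 libraries at 11.9, 14.1 and 10.8 CPM. The lowest shPRMT6 library exceeded the highest NC library, and the log2 fold change was 0.86 (SE 0.150, edgeR adjusted p = 0.0109). FBXO32 kept its call whichever library was left out. It lost the call in edgeR with a replicate block (adjusted p = 0.0555) and in limma without a filter (0.116).

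FBXL5, the iron-sensing F-box protein that controls the iron regulatory protein IRP2, was at 50.7, 52.1 and 50.3 CPM in NC and at 65.7, 63.8 and 60.6 CPM in shPRMT6. The NC libraries lay within 2 CPM of each other and all shPRMT6 libraries above them. FBXL5 had a log2 fold change of 0.31 (SE 0.0631, edgeR adjusted p = 0.0182). Leaving out NC replicate 3 (adjusted p = 0.0683), shPRMT6 replicate 1 (0.0753) or shPRMT6 replicate 2 (0.0777) ended the call.

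FBXO45, a brain-enriched protein that pairs with the ligase MYCBP2 instead of CUL1, was at 27.3, 29.8 and 30.2 CPM in NC and at 38.4, 38.2 and 38.2 CPM in shPRMT6. Its shPRMT6 libraries were as close to each other as those of FBXL2, and all lay above NC. The log2 fold change of FBXO45 was 0.39 (SE 0.0741, edgeR adjusted p = 0.0147), and the call was lost when any shPRMT6 library was left out (adjusted p from 0.0536 to 0.0600).

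FBXO33 was at 22.2, 24.0 and 21.2 CPM in NC and at 30.5, 29.4 and 28.9 CPM in shPRMT6. FBXO38 was at 40.3, 42.4 and 39.5 CPM in NC and at 49.98, 51.0 and 48.4 CPM in shPRMT6. Neither gene showed overlap between its groups. Their log2 fold changes were 0.40 for FBXO33 (SE 0.0827, edgeR adjusted p = 0.0202) and 0.29 for FBXO38 (SE 0.0667, adjusted p = 0.0288). Both lost their call when any library except NC replicate 2 was left out, with adjusted p up to 0.0773 for FBXO33 and 0.110 for FBXO38. FBXO17 belongs to the sugar-binding F-box proteins described next.

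**Figure D3:**
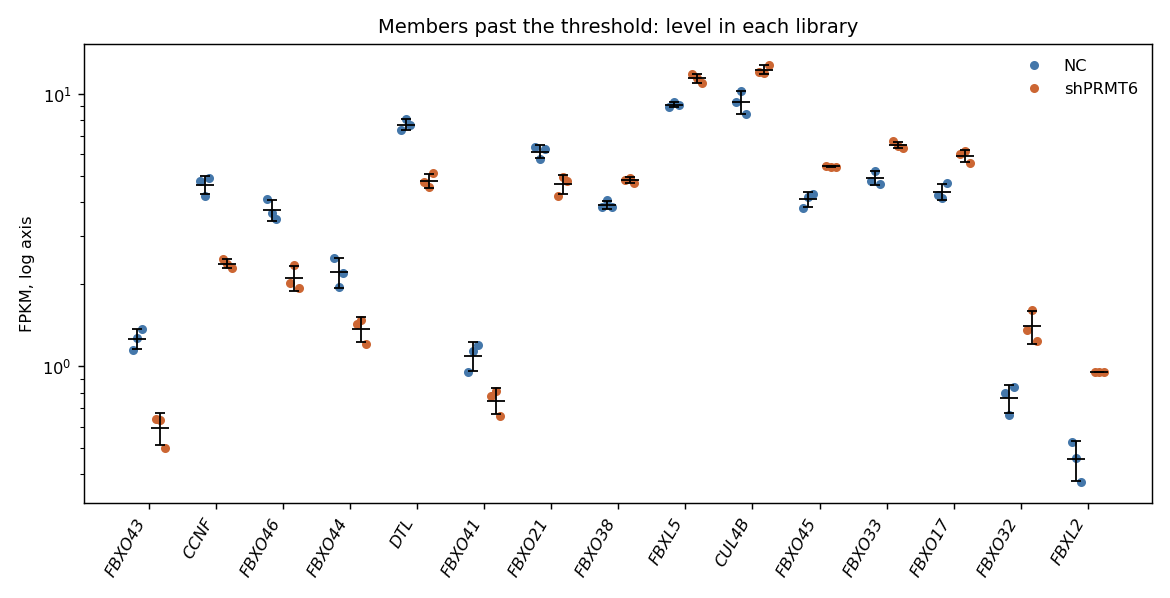
FPKM (y axis, log scale) of 15 members past an adjusted p of 0.05 in each NC (blue) and shPRMT6 (orange) library, with the mean and SD over 3 libraries, ordered from the largest fall to the largest rise. In none of the 15 did the groups overlap; levels ran from 0.455 FPKM for FBXL2 to 9.35 FPKM for CUL4B as NC means. FBXO24 is left out because it had no counts in shPRMT6.

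FBXO2, FBXO6, FBXO17, FBXO27 and FBXO44 form a subfamily that shares a sugar-binding domain, through which FBXO2 and FBXO6 recognise misfolded glycoproteins. This grouping was made after the values were seen. FBXO17 was at 24.6, 23.6 and 26.7 CPM in NC and at 34.2, 34.9 and 31.6 CPM in shPRMT6, without overlap, and its log2 fold change was 0.43 (SE 0.0861, edgeR adjusted p = 0.0180). Its call ended when NC replicate 1 (adjusted p = 0.0523), shPRMT6 replicate 1 (0.0678) or shPRMT6 replicate 2 (0.0757) was left out. FBXO44, given above, fell by 0.70 on the same scale, so that the subfamily held a member past the threshold in each direction. FBXO27, which lies beside FBXO17 on chromosome 19, was at 17.8 ± 1.52 CPM in NC and 19.3 ± 1.03 CPM in shPRMT6 (SD, n = 3), with a log2 fold change of 0.12 (edgeR adjusted p = 0.479). FBXO6 had at most 42 counts in any library and a log2 fold change of 1.56 with an SE of 1.06, too wide to give a direction. In NC, FBXO27 was at 5.35 FPKM, FBXO17 at 4.37, FBXO44 at 2.22, and FBXO2 and FBXO6 at 0.0478 and 0.0689 FPKM.

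Most other FBXL genes lay slightly higher in shPRMT6 without passing in edgeR. FBXL18 had a log2 fold change of 0.23 (edgeR adjusted p = 0.0821) and FBXL13 of 0.29 (0.122), and neither had overlapping groups. Both passed in DESeq2 (adjusted p = 0.00395 and 0.0319). FBXL7, among the most abundant of the family at 8.18 ± 0.385 FPKM in NC, had a log2 fold change of 0.13 (adjusted p = 0.251). On the other side, FBXL6 had the lowest value of the family, -0.35 (SE 0.150, edgeR adjusted p = 0.159), with SLC52A2 opposite 31.7% of its exon bases. Summed over the 17 FBXL genes, the level was 56.6 ± 4.06 FPKM in NC and 62.5 ± 1.92 FPKM in shPRMT6 (SD, n = 3).

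The FBXW genes showed the smallest differences. FBXW5 was the most abundant F-box member that was measured, at 17.3 ± 2.40 FPKM in NC and 17.2 ± 0.986 FPKM in shPRMT6. FBXW11, a β-TrCP protein that targets β-catenin and IκB, was at 10.5 ± 1.60 and 10.5 ± 0.765 FPKM, and its log2 fold change was 0.00 (SE 0.119, edgeR adjusted p = 0.989). FBXW2 was at -0.04 (SE 0.0628, edgeR adjusted p = 0.681). The tumour suppressor FBXW7, receptor for MYC and cyclin E and named here after its values were seen, was at 15.04, 17.9 and 16.9 CPM in NC and at 15.9, 17.1 and 15.4 CPM in shPRMT6, with overlapping groups and a log2 fold change of -0.04 (SE 0.103, adjusted p = 0.819). FBXW4 alone had groups without overlap (-0.27, SE 0.106, edgeR adjusted p = 0.138). BTRC, the other β-TrCP gene, whose symbol lies outside the family names, was higher in shPRMT6 with a log2 fold change of 0.28 (SE 0.0744, edgeR adjusted p = 0.0453).

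Among the abundant FBXO genes, FBXO8 led in shPRMT6 with 16.4 ± 0.809 FPKM, followed by FBXO34 with 10.9 ± 0.657 and FBXO7, the Parkinson disease gene, with 9.65 ± 0.357 FPKM (SD, n = 3). FBXO34 and FBXO7 had log2 fold changes of -0.04 and 0.08 and overlapping groups (edgeR adjusted p = 0.811 and 0.560). FBXO8 was at 35.9, 34.9 and 20.9 CPM in NC and at 41.1, 42.2 and 45.1 CPM in shPRMT6. Its groups did not overlap, but NC replicate 3 stood well below the other NC libraries, and the log2 fold change of 0.49 did not pass (SE 0.204, edgeR adjusted p = 0.153; 0.0323 in DESeq2). CEP44 lies opposite 16.5% of its exon bases. Other FBXO members not far from the threshold were FBXO48 at -0.50 (edgeR adjusted p = 0.0658) and FBXO16 at 0.76 (0.0674). Both passed in DESeq2 (adjusted p = 0.00864 and 0.00635). FBXO16 shares 45.0% of its 75-base stretches with other genes, and ZNF395 overlaps its exons on the same strand. All 36 FBXO genes together held 120 ± 5.49 FPKM in NC and 124 ± 5.38 FPKM in shPRMT6, and all 62 F-box members 223 ± 9.99 and 232 ± 5.94 FPKM, differences within about the spread between libraries.

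Some members varied widely between libraries of 1 group. Among those with ample counts FBXO28 had the largest such spread, with 20.0, 71.1 and 70.8 CPM in NC and 28.0, 91.3 and 31.1 CPM in shPRMT6. NC replicate 1 and shPRMT6 replicates 1 and 3 formed the low libraries, and its log2 fold change of -0.11 had an SE of 0.618 (edgeR adjusted p = 0.926). FBXL19, which binds CpG islands, had NC replicate 3 at 63.1 CPM above 38.2 and 35.1 CPM in the other NC libraries, while shPRMT6 ran from 29.1 to 50.8 CPM. FBXO22 had its low libraries in NC replicate 1 (20.1 CPM) and shPRMT6 replicate 3 (21.9 CPM), against 29.2 to 32.0 CPM in the rest. Over the members, the ratio of the highest to the lowest library, taken in the group where it was larger, was above 1.5 in 11 of 69 tested members and had a median of 1.22 (FBXL16, with libraries at 0 in both groups, had no ratio). FBXO28, FBXL19, FBXO8 and FBXO22 were picked for display after their values were seen.

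**Figure D4:**
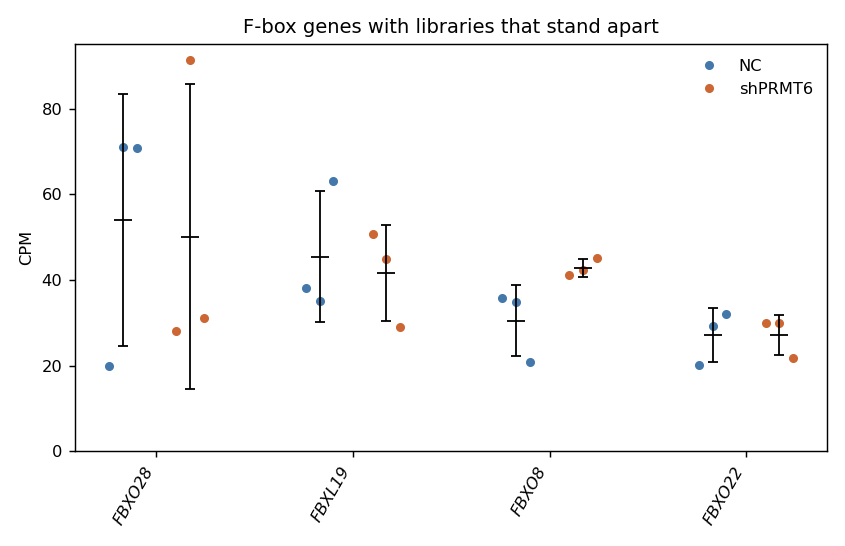
CPM (y axis, linear from 0) of FBXO28, FBXL19, FBXO8 and FBXO22 in each NC (blue) and shPRMT6 (orange) library, with the mean and SD over 3 libraries. The low libraries of FBXO28 fall in both groups (20.0, 28.0 and 31.1 CPM) and include both low libraries of FBXO22 (20.1 and 21.9 CPM).

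Of the cullin scaffolds, CUL4B passed the threshold in the main edgeR test. CUL4B is the X-linked relative of CUL4A, found more in the nucleus, and uses the same adaptor DDB1; the gene lies from 120524609 to 120575794 on the minus strand. It was at 90.8, 98.4 and 80.3 CPM in NC and at 115, 114 and 122 CPM in shPRMT6. All shPRMT6 libraries were higher, with a log2 fold change of 0.38 (SE 0.0861, edgeR adjusted p = 0.0266), and the call was lost when any library except NC replicate 2 was left out (adjusted p from 0.0612 to 0.0897). CUL4A, at 99.3, 113 and 100 CPM in NC and 107, 110 and 116 CPM in shPRMT6, overlapped between groups and had a log2 fold change of 0.09 (SE 0.0730, edgeR adjusted p = 0.431). Per length, the CUL4B to CUL4A ratio of FPKM was 0.884, 0.845 and 0.775 in NC and 1.04, 1.01 and 1.01 in shPRMT6. The log2 difference of 0.29 gave an exact permutation p of 0.1 (two-sided), which is the lowest this design can reach, and the ratio was chosen after the values were seen.

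CUL7, the scaffold of the ligase with FBXW8, lay just outside the threshold: it was at 33.8, 34.2 and 33.5 CPM in NC and at 43.4, 38.8 and 40.0 CPM in shPRMT6, a log2 fold change of 0.27 (SE 0.0740, edgeR adjusted p = 0.0507). CUL7 passed with at least 10 counts in every library (adjusted p = 0.0440), in limma on FPKM of filtered genes (0.0334 and 0.0312 with pseudocounts of 1 and 0.1) and in DESeq2 (0.00109). CUL2, the scaffold for VHL, had separate groups at 74.8, 78.1 and 64.6 CPM in NC and 79.7, 83.5 and 98.7 CPM in shPRMT6, but its log2 fold change of 0.27 had an SE of 0.110 (edgeR adjusted p = 0.148; 0.0444 in DESeq2). CUL1, the scaffold of the F-box proteins, was the most abundant cullin per length and among the steadiest members. It was at 39.3 ± 0.60 FPKM in NC and 40.6 ± 0.856 FPKM in shPRMT6 (SD, n = 3), with a log2 fold change of 0.04 (SE 0.0487, edgeR adjusted p = 0.626). CUL3, scaffold for BTB proteins, and CUL5, scaffold for SOCS-box proteins, had log2 fold changes of -0.01 and 0.08 with overlapping groups (adjusted p = 0.910 and 0.760). CUL9 was the lowest scaffold at 0.991 ± 0.0503 FPKM in NC and had a log2 fold change of -0.20 (SE 0.111, adjusted p = 0.255).

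In order of FPKM in NC, the scaffolds were CUL1, then CUL2 (11.6 ± 1.05), CUL4A (11.2 ± 0.813) and CUL4B (9.35 ± 0.896), then CUL3 (5.44 ± 0.385), CUL7 (4.66 ± 0.0478), CUL5 (2.73 ± 0.525) and CUL9. CUL2 and CUL4A did not differ beyond their spread. In shPRMT6 CUL4B, at 12.3 ± 0.466 FPKM, stood level with CUL4A at 12.0 ± 0.528, and CUL7 (5.64 ± 0.330) with CUL3 (5.41 ± 0.138). The 8 scaffolds together held 85.2 ± 3.34 FPKM in NC and 93.8 ± 3.17 FPKM in shPRMT6 (SD, n = 3). Each shPRMT6 library (91.3, 92.7 and 97.3 FPKM) exceeded each NC library (83.3, 89.1 and 83.3 FPKM) in this sum.

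Of the partners that complete the ligases, DTL alone passed in edgeR with all libraries. SKP1, the F-box adaptor, was at 207, 152 and 176 CPM in NC and at 211, 156 and 195 CPM in shPRMT6, overlapping throughout, with a log2 fold change of 0.07 (SE 0.149, edgeR adjusted p = 0.796). DDB1 was at 256, 281 and 257 CPM in NC and at 244, 247 and 247 CPM in shPRMT6. Its groups stood apart by a small margin, but the log2 fold change of -0.10 did not pass (SE 0.0574, adjusted p = 0.264). CAND1, which exchanges the receptors on cullins, also had separate groups, at 180, 210 and 186 CPM in NC and 220, 236 and 211 CPM in shPRMT6, with a log2 fold change of 0.21 (SE 0.0804, edgeR adjusted p = 0.123), and it passed without NC replicate 2 (0.28, adjusted p = 0.0449) and in DESeq2 (0.0284).

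The RING subunits RBX1, which serves most cullins, and RNF7, which serves CUL5, overlapped between groups. RBX1 had a log2 fold change of -0.08 (SE 0.108, edgeR adjusted p = 0.680) and RNF7 of 0.23 (SE 0.105, adjusted p = 0.187), which passed without NC replicate 1 (0.34, adjusted p = 0.0283). The RNF7 to RBX1 ratio of FPKM was 1.86, 1.70 and 1.42 in NC and 1.93, 2.06 and 2.19 in shPRMT6, without overlap. Its log2 difference of 0.32 also gave an exact permutation p of 0.1, and this ratio too was chosen after the values were seen. With the CUL4B to CUL4A ratio, 2 ratios were computed, and the adjusted p of both is 0.1.

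**Figure D5:**
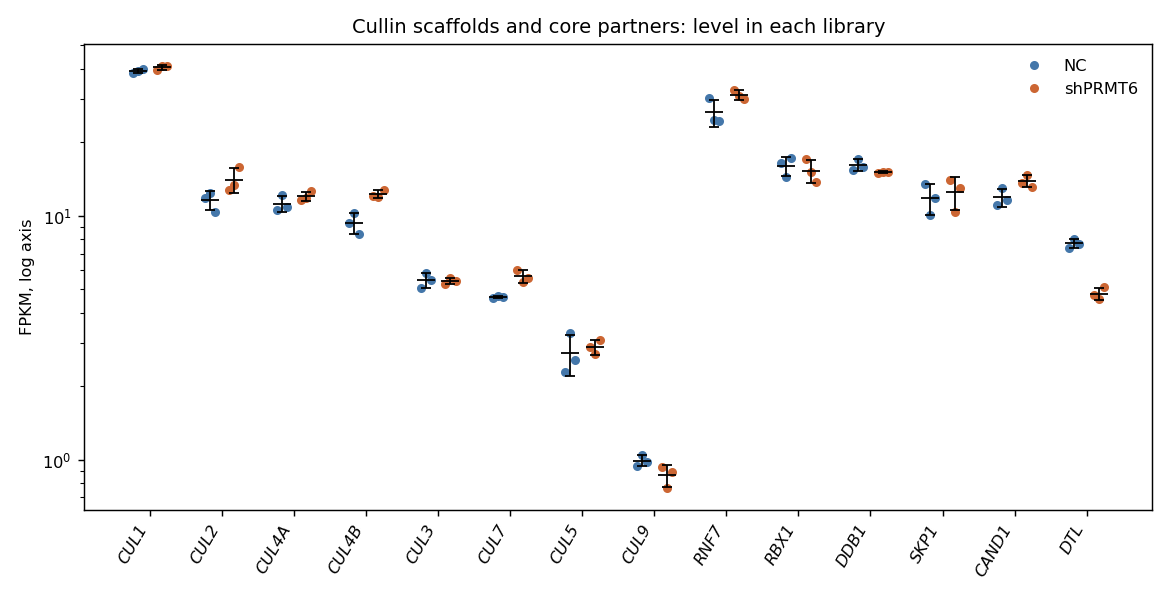
FPKM (y axis, log scale) of the 8 cullin scaffolds and 6 core partners in each NC (blue) and shPRMT6 (orange) library, with the mean and SD over 3 libraries. CUL1, at about 40 FPKM, and RNF7 are the highest, DTL is the gene with the clear fall, and CUL4B rises to the level of CUL4A.

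The regulators and receptors that surround the members were described from 6 lists, with 134 genes listed and 129 tested. Of these, 26 passed (20.2%, beside 18.6% over the whole table), of which 10 fell and 16 rose, and their median log2 change was 0.03. Leaving out NC replicate 3 gave 13, shPRMT6 replicate 1 gave 14, shPRMT6 replicate 2 gave 12 and shPRMT6 replicate 3 gave 13. In the NEDD8 cycle, which switches cullins on and off, 5 of 23 passed (21.7%). UBE2M, the E2 enzyme that loads NEDD8, was at 215, 172 and 199 CPM in NC and at 149, 146 and 138 CPM in shPRMT6, without overlap and with a log2 fold change of -0.44 (SE 0.0909, edgeR adjusted p = 0.0200). Of the COP9 signalosome, which removes NEDD8, GPS1 and COPS7A were lower (-0.51 and -0.30), and COPS2, named after its values were seen, was higher (0.28).

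Of the E2 and RBR partners, 1 of 10 passed (10.0%, beside 18.6% of all genes tested). This was CKS1B, the cofactor that helps the F-box protein SKP2 to bind its substrate p27, at 114, 104 and 103 CPM in NC and 63.2, 53.8 and 54.6 CPM in shPRMT6 (log2 fold change -0.90, SE 0.0862, edgeR adjusted p = 0.00164). The groups were far apart, and CKS1B is also a gene of proliferating cells. ARIH2 (0.19) and UBE2R2 (0.15) did not pass in edgeR but did in DESeq2 (adjusted p = 0.00447 and 0.0273). Of the F-box genes with other symbols, 9 of 10 were found in the table and 2 of 7 tested passed (28.6%), BTRC and LMO7 (-0.80).

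Receptors of the other cullins changed in both directions, with shares past the threshold near the 18.6% of all genes tested. On CUL4, 4 of 23 passed (17.4%). Among them were the DNA damage receptor DDB2 (-0.69) and DCAF15 (-0.57), which were lower, and DCAF8 (0.32), which was higher. DDB2 was at 44.2, 44.1 and 36.2 CPM in NC and 27.3, 24.6 and 25.3 CPM in shPRMT6, so that it and DTL fell by the same amount on the log2 scale. On CUL3, 8 of 35 passed (22.9%), 2 lower and 6 higher, with RHOBTB3 at -0.79, ENC1 at 0.54 and KBTBD8 at 0.89. On CUL2 and CUL5, 6 of 31 passed (19.4%), 1 lower and 5 higher. SOCS3, the cytokine feedback inhibitor, was at -0.53, KLHDC10 at 0.56 and ZER1 at 0.42.

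The 6 members left out of the main test by its filter had few or no counts. FBXO40, FBXO47 and FBXW12 had 0 counts in all 6 libraries. FBXO39 had 13 and 16 counts in shPRMT6 replicates 1 and 2 and 0 in the rest. FBXW10 had 4 counts in NC replicate 2 and 23 in shPRMT6 replicate 2 and 0 in the others. FBXL22 had 31, 10 and 10 counts in NC and 7, 4 and 0 in shPRMT6, with USP3-AS1 opposite 26.7% of its exon bases.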

How the data were processed

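RNA of U87 cells was measured in 3 NC and 3 shPRMT6 libraries, grouped by the labels' treatment field. The authors deposited raw counts per gene, and per the submitters' processing notes reads were handled with HISAT2 and HTSeq 0.13.5 on GRCh38. FPKM values, normalised for length and depth, were deposited beside them, and a gene without counts stands there at 0.0001. The kit (NEBNext Ultra) does not mark strand, and the strand setting of the counting is not given in the sources used here.

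Counts were tested with edgeR 4.0.16 in R 4.3.3 (TMM factors, filterByExpr, quasi-likelihood test, Benjamini-Hochberg adjustment over 18106 genes). CPM values are TMM scaled, and errors after ± are SD over 3 libraries. The SE of a log2 fold change is its absolute value divided by the square root of the edgeR F statistic. The p-values measure only the spread between these libraries, which the methods call independent without saying whether they were separate cultures. No pair of libraries within a group was a duplicate (chi-square per degree of freedom 48.2 to 78.4). Bounds use a floor of 3 counts per library and cover counting error only. Ratios were compared by exact permutation in SciPy 1.17.1 (Python 3.11.15). Exon overlaps and 75-base stretches came from GENCODE 29 on GRCh38, and promoters from RefSeq.

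The members and gene lists were chosen with earlier results of these data known. Named were all members past an adjusted p of 0.05, all 15 members given singly by symbol, the 3 most abundant genes in NC of each F-box family, the 3 smallest p of each list, and PRMT6; others are named after their values were seen or as near the threshold. The alternatives were DESeq2 1.42.0, other scaling (none, or upper quartile), filters of 10 counts in all libraries or 1 count in any, a replicate block, limma 3.58.1 on log2 FPKM (pseudocount 1 or 0.1, genes of mean FPKM 1 or more, and pseudocount 1 over all genes), an adjusted p of 0.01, and each library left out in turn. The programs were tested on simulated data, in which DESeq2 made more false calls than edgeR (30.2% and 7.73% of calls). Of genes changed by 1 on the log2 scale, DESeq2 recovered 92% and edgeR 67%. The simulation used the spread estimated by edgeR and changed far fewer genes than were called here. It therefore cannot rank the programs on the real data. The values of 1 member are counted but not reported here.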

Additional observations from a re-analysis of the deposited data

How the results depend on the processing

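Of the 16 members past the threshold, CCNF, DTL, FBXL2 and FBXO43 passed in every alternative in which they were tested, and no named member past the threshold changed direction. With each library left out in turn, the count of members ran from 7 to 16, of lower members from 4 to 6, of higher members from 2 to 10, and of regulators and receptors from 12 to 22. DESeq2 gave 25 members (16 higher) and 44 regulators and receptors. It made more false calls than edgeR in simulated data, but those data were drawn with the spread estimated by edgeR. limma on log2(FPKM + 1) without a filter gave 6 members (3 lower, 3 higher) and 9 regulators and receptors. limma over genes of mean FPKM 1 or more gave 5 lower members with either pseudocount, over 58 members tested. An adjusted p of 0.01 left 5 members (4 lower, 1 higher) and 12 regulators and receptors.

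Libraries with the same replicate number did not deviate together (correlations -0.0248, -0.0171 and -0.0301). With 3 libraries per group these values cannot show whether libraries of the same number were prepared together, and the main test used no pairing. With the replicate block, 5 members passed (4 lower, 1 higher) and 14 regulators and receptors, and PRMT6 stood at -0.88 (edgeR adjusted p = 0.0803). In limma without a filter PRMT6 was at -0.47 (adjusted p = 0.158), and between -1.0 and -0.73 with each library left out. Members with few counts, such as FBXO24, FBXO6 and FBXO2, are limited by depth, and the causes of the other shifts were not tested.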
